A study of Drosophila melanogaster with 47 samples.

Results

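Whole midguts of adult Drosophila melanogaster females carrying the ubiquitous Actin-Gal4 driver without an RNAi construct were compared after mating and without it. The libraries were chosen by their labels alone, as mated or unmated, control and Actin, which gives 4 mated and 4 unmated libraries, 8 of the 47 samples of the series. All gene rows of their count table were analysed. The study asked how mating changes the female midgut and whether ecdysone signalling takes part. It also holds guts with Actin-Gal4 driving RNAi against EcR, which encodes the ecdysone receptor, guts with an enterocyte driver, and whole guts and sorted progenitor cells from esg-Gal4 flies. Per the labels, both groups described here have the genotype Actin-Gal4, with no further allele or agent named. Females were collected as virgins, held for 5 days at 29 °C, and then either given an equal number of males for 48 h at 25 °C or kept away from males since eclosion. Mated and unmated females were matched for age and genotype, and each library was a pool of 15 guts. The controls passed through the same warm incubation as the RNAi flies, and the driver itself is not limited to the gut. The labels do not say whether the pools came from separate cultures, so the p-values measure only a spread between pools. That spread was estimated over all 16 Actin libraries, including the 8 labelled EcR RNAi.

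The adult midgut of Drosophila is a tube of absorptive and enzyme-secreting enterocytes with scattered enteroendocrine cells, renewed by intestinal stem cells and wrapped in visceral muscle. Mating is known to switch the female from maintenance to egg production, and signals from the male ejaculate, juvenile hormone and ecdysone are known to enlarge her midgut and change its metabolism. Enterocytes break starch and sugars down with maltases and amylases and proteins with trypsins, and they take up the products through transporters that feed insulin and TOR signalling, the nutrient-sensing pathways that control ribosome production and growth.

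Total counts were 21608238 to 28320408 in the mated and 21315098 to 29820841 in the unmated libraries. Levels are given in counts per 1000000 (CPM), with the library size adjusted by the trimmed mean of M values, as means ± SD over n = 4 libraries where a mean is given. Markers of enterocytes, visceral muscle, progenitors and enteroendocrine cells were all present, as the tissue label says. The enterocyte gene mex1 stood at 275, 313, 309 and 331 CPM in mated libraries 1 to 4 and at 328, 358, 337 and 403 CPM in unmated libraries 1 to 4. The muscle myosin gene Mhc, the progenitor gene esg and the enteroendocrine gene pros had unmated means of 588, 36.1 and 10.3 CPM. EcR (FBgn0000546; 2R, 6087873 to 6169087, - strand) was at 8.07 ± 1.04 CPM without and 8.28 ± 0.942 CPM after mating, and its mating difference did not pass the test (log2 0.04, adjusted p = 0.889).

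Replicates 1 and 2 differed from replicates 3 and 4 in both mating states for single stress, blood cell and antimicrobial genes. Summed levels of digestive proteases and lysozymes also differed. The small heat shock gene Hsp26 was at 5.20, 9.24, 29.4 and 22.9 CPM in mated libraries 1 to 4 and at 2.75, 6.02, 52.5 and 82.3 CPM in unmated libraries 1 to 4, and the haemocyte gene Hml at 14.9, 12.1, 1.64 and 3.88 CPM in mated libraries 1 to 4 and at 13.5, 24, 3.15 and 5.29 CPM in unmated libraries 1 to 4. The antimicrobial gene AttD was at 17.4, 8.90, 34.3 and 30.7 CPM in mated libraries 1 to 4 and at 8.88, 8.15, 26.7 and 41.6 CPM in unmated libraries 1 to 4. Sums over the antimicrobial, heat shock and haemocyte lists separated replicates 1 and 2 from replicates 3 and 4 in unmated libraries only. In mated libraries 1 to 4 the antimicrobial sums were 42.8, 21.4, 50.4 and 40.9 CPM. Heat shock sums were 4466, 3462, 3576 and 3579 CPM there, and haemocyte sums 157, 135, 132 and 137 CPM. Digestive serine proteases summed to 96118, 126350, 184130 and 212280 CPM in mated libraries 1 to 4. In unmated libraries 1 to 4 they summed to 93953, 86821, 166200 and 155690 CPM, and over all 8 libraries they made up 8.68% to 21.2% of normalised counts. Lysozyme sums were 14186, 17320, 25492 and 28420 CPM in mated and 10680, 9127, 21648 and 23427 CPM in unmated libraries 1 to 4. The labels name no batch that would separate these libraries, and each mating state holds 2 libraries of either kind. With this split as a term of the fit, 882 genes were called for mating in place of 621. Every direction below is that of the deposited mating labels.

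Across all genes, mating went with modest shifts in many transcripts and large shifts in few. Genes count as called when edgeR's quasi-likelihood test gave them an adjusted p below 0.05, with Benjamini-Hochberg adjustment over all 9036 genes tested. Mating called 621 genes, 6.87% of those tested, of which 267 (2.95%) were higher and 354 (3.92%) lower in mated guts. Only 32 of the higher and 35 of the lower genes changed more than 2-fold. In 1271 genes (14.1%) the 4 mated and 4 unmated libraries did not overlap, 622 higher (6.88%) and 649 lower (7.18%). The median log2 fold change over all genes was 0.01. The number of calls depended on which libraries entered the fit: it was 266 when the 8 control libraries were fitted without those labelled EcR RNAi, 383, 340 and 333 without mated library 1, 2 or 3, and 288 and 408 without unmated library 2 or 3. Of the 92 genes called that the naming rule selects, 44 were called with every library left out in turn. The other 48 lost the call in 1 or more of these 8 fits, from 18 genes without unmated library 4 to 43 without unmated library 2, and those described below are marked in their paragraphs. With the 8 control libraries alone 48 of the 92 lost the call. Of these, 9 had kept it with every library left out in turn, namely CG31259, CG32444, CG7631, CG9664, eEF1beta, eIF3g1, GstT4, maf-S and Try29F, with adjusted p-values of 0.0502 to 0.0712 in the fit of 8.

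**Figure D1:**
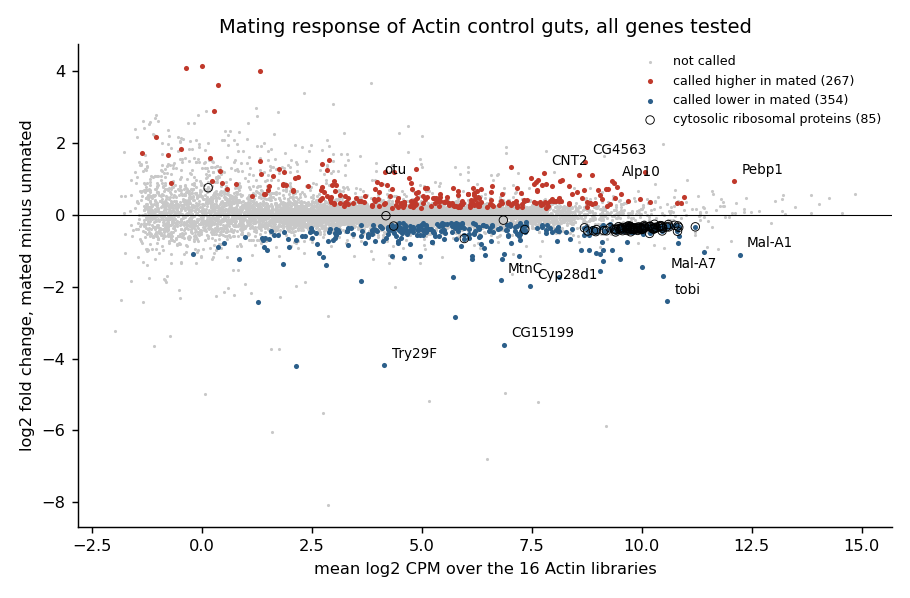
Log2 fold change (mated minus unmated) against mean log2 CPM for the 9036 genes tested, with 267 genes called higher in red, 354 called lower in blue and the 85 cytosolic ribosomal protein genes circled. The ribosomal protein genes form a tight band of abundant transcripts just below 0, while tobi, Mal-A7, Mal-A1 and Pebp1 combine high levels with larger changes.

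Among the gene lists examined, the largest share of calls was in cytosolic ribosomal proteins, most of them protein components of the translating ribosome. The list was matched by gene name and so also holds RpLP0-like and RpL24-like. Of 85 genes tested, 80 were lower in mated guts, none was higher, and the median log2 fold change was -0.37, against a background of 3.92% of all genes called lower. Groups did not overlap for 78 of them, against 7.18% of all genes lower without overlap. For every list below, the shares of all genes to set beside the counts are 2.95% called higher and 3.92% called lower. Those without overlap are 6.88% higher and 7.18% lower, and 51.7% of all genes had a positive log2 fold change. Summed over the list, these transcripts came to 72317, 77528, 64251 and 71149 CPM in mated libraries 1 to 4 and 97174, 97255, 83475 and 89432 CPM in unmated libraries 1 to 4. That is 7.13 ± 0.55% of normalised counts in mated and 9.18 ± 0.67% in unmated guts, and every mated library was below every unmated one. In bulk tissue, fewer cells of a type and less RNA per cell cannot be told apart here or for any result below. The acidic stalk protein gene RpLP1 (FBgn0002593; 2L, 419952 to 420864, + strand) stood at 1208, 1287, 1126 and 1263 CPM in mated libraries 1 to 4 and at 1732, 1718, 1524 and 1679.5 CPM in unmated libraries 1 to 4. The groups did not overlap, a log2 change of -0.45 ± 0.07 (SE; adjusted p = 0.00412). RpS21 fell from 581 ± 44.1 to 421 ± 28.3 CPM and RpS28b from 811 ± 46.6 to 606 ± 35.6 CPM. RpL3, among the most abundant transcripts of the list, fell from 2552 ± 270.0 to 2027 ± 198 CPM (log2 -0.33, adjusted p = 0.0387). The 5 genes not called were RpL34a, RpLP0-like, RpS3A, RpS15Ab and RpS5b. Reads of duplicated genes such as RpS5b and RpS15Ab can be divided between the copies. With only the 8 control libraries in the fit 26 members were called lower, and without mated library 3 it was 55. RpL3 lost the call in 5 of the 8 fits that left out 1 library.

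Other parts of the translation machinery gave fewer calls. Of 34 initiation and elongation factors 6 were lower and none was higher, with a median log2 fold change of -0.12. The lower ones were the elongation factor gene eEF1beta (log2 -0.33, adjusted p = 0.0143), the initiation factor 3 subunits eIF3k, eIF3g1, eIF3m and eIF3f1, and Tctp. Of 40 genes of ribosome biogenesis and the nucleolus, 4 were lower and 1 was higher. Non1, a nucleolar GTPase of 60S assembly, fell from 399 ± 23.2 to 249 ± 26 CPM, and CG4364 fell from 145 ± 14.9 to 98.2 ± 10.2 CPM. The higher one was bor, at 34.8 ± 3.64 CPM without and 45.7 ± 4.53 CPM after mating. It encodes a mitochondrial AAA ATPase and is not known for ribosome biogenesis, so no gene with that role was called higher. Mitochondrial ribosomal proteins, which translate the mitochondrial genome, had 1 of 72 higher (mRpL55, log2 0.35) and none lower, and none of 18 tRNA synthetase genes was called. The 6 factors called became 3 without mated library 3, and the 4 biogenesis genes became 2 without mated library 2 or 3 or unmated library 1 or 3. bor was not called without unmated library 2. mRpL55 lost the call in 6 of the 8 fits that left out 1 library.

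Genes that digest starch and sugars were lower in mated guts for 8 of 27 tested members and higher for 1, with a median log2 fold change of -0.32. The lower ones were tobi, 5 maltases, the beta-galactosidase gene Gal and the trehalase gene Treh. tobi (FBgn0261575; 3R, 25344761 to 25346921, - strand), an alpha-glucosidase known in flies as a target of insulin-like peptides from the brain, stood at 719.5, 1271, 1689.9 and 2344 CPM in unmated libraries 1 to 4 and at 325, 147, 446 and 227 CPM in mated libraries 1 to 4. Even the highest mated library was below the lowest unmated one, and the unmated libraries themselves spread widely. This was a log2 change of -2.40 ± 0.45 (SE; adjusted p = 0.00912). Mal-A1 (FBgn0002570; 2R, 8449664 to 8451904, - strand), a maltase and one of the most abundant transcripts that fell, was at 3362, 4651, 4902 and 5451 CPM in unmated libraries 1 to 4 and at 2688, 1763, 2491 and 1597 CPM in mated libraries 1 to 4. No mated value reached the lowest unmated one (log2 -1.10, adjusted p = 0.0130). Mal-A7 fell from 1909.6 ± 990.3 to 593 ± 197 CPM (log2 -1.69, adjusted p = 0.0231) and Mal-A8 from 1534 ± 669 to 557 ± 92.2 CPM. Mal-A6 fell from 2955 ± 988 to 1445 ± 385 CPM, but here a mated library overlapped the unmated range. Mal-A5, at a few CPM, fell from 3.31 ± 0.269 to 2.05 ± 0.250 CPM. The maltase genes lie in a family of similar copies, so their reads may be divided. The higher member was GCS2alpha, a glucosidase of the endoplasmic reticulum that trims sugars from new glycoproteins rather than food, at 347 ± 13.4 CPM without and 404 ± 10.1 CPM after mating. The number called lower was 3 and 2 without mated library 1 and 2, and 5 and 3 without unmated library 2 and 3. Mal-A5 was not called without mated library 2, nor was Mal-A7 without mated library 1, mated library 2 or unmated library 3. Mal-A6 lost the call in 6, and GCS2alpha in all of the 8 fits that left out 1 library.

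Protein and fat digestion gave little. Of 31 digestive serine proteases 1 was lower and none was higher, and the median was 0.15. That gene was Try29F, which stood at 8.17, 14.1, 97.8 and 74.9 CPM in unmated libraries 1 to 4 and at 2.90, 2.65, 2.67 and 2.36 CPM in mated libraries 1 to 4. Every mated library was below every unmated one, and the unmated libraries ranged widely (log2 -4.19, adjusted p = 0.00882). With the 8 control libraries alone Try29F was not called (adjusted p = 0.0555). The summed protease levels were lower in replicates 1 and 2 than in replicates 3 and 4 in both mating states, as given above. None of 12 lipases, 9 sterol uptake genes of the Niemann-Pick family or 20 vacuolar ATPase subunits was called. The 7 lysozyme genes all had positive log2 fold changes, with a median of 0.53, and none passed the test. Intestinal alkaline phosphatases were called higher for 2 of 8. Alp10 (FBgn0035619; 3L, 5592741 to 5595272, - strand) stood at 783, 891, 902 and 910.3 CPM in mated libraries 1 to 4 and at 535, 383, 472 and 497 CPM in unmated libraries 1 to 4, without overlap, a log2 change of 0.89 ± 0.11 (SE; adjusted p = 0.00156). Its relative Alp9 rose from 277 ± 62.2 to 599.6 ± 92.1 CPM (log2 1.11, adjusted p = 0.00255).

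**Figure D2:**
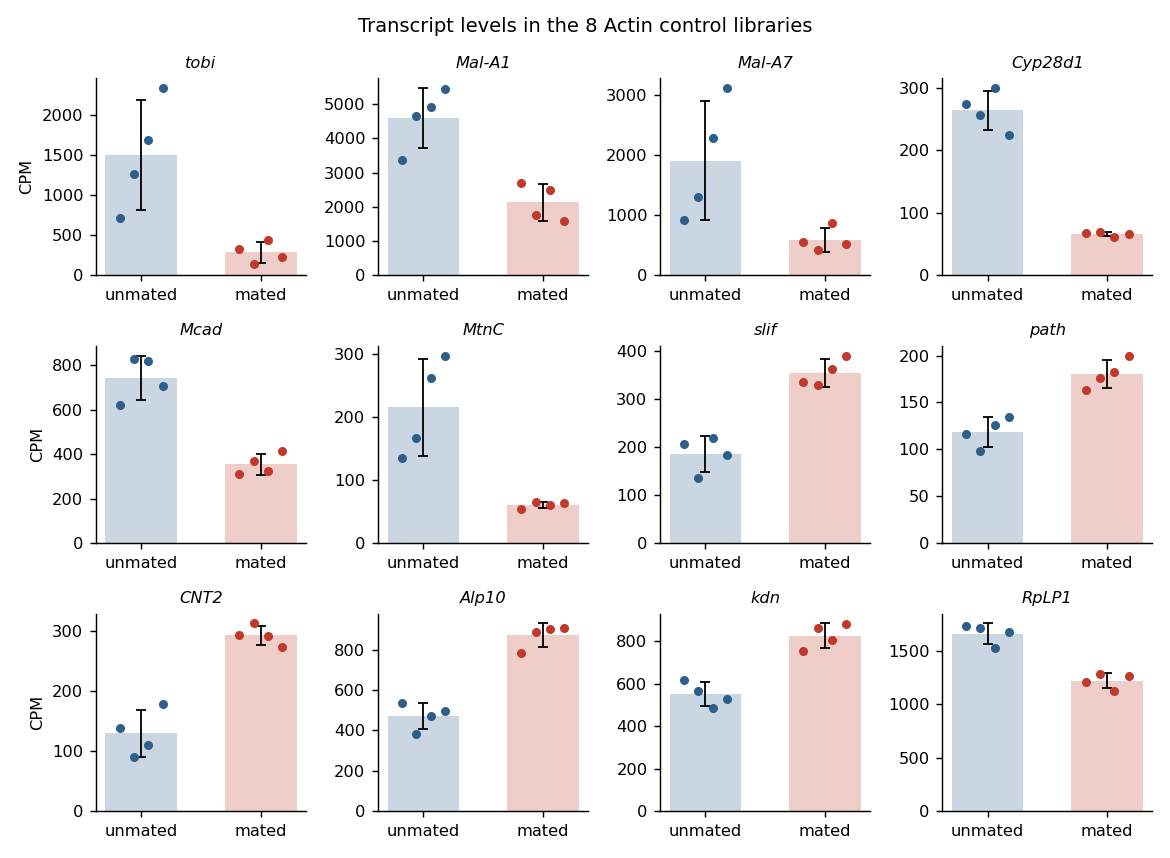
CPM of 12 genes in the 4 unmated (blue) and 4 mated (red) Actin control libraries; points are libraries in order 1 to 4, bars are means and error bars the SD. In every panel each mated library lies on one side of all unmated libraries, below for tobi, Mal-A1, Mal-A7, Cyp28d1, Mcad, MtnC and RpLP1 and above for slif, path, CNT2, Alp10 and kdn.

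Several amino acid transporters were higher. Of 18 tested, 4 rose and none fell, with a median of 0.34, and the summed level was 2275, 2509, 2728 and 3109 CPM in mated libraries 1 to 4 and 1734, 1347, 1763 and 1699 CPM in unmated libraries 1 to 4. All mated sums were above all unmated ones. The cationic amino acid transporter gene slif (FBgn0037203; 3L, 22881045 to 22893821, + strand), known from the fly fat body for coupling amino acid uptake to TOR and growth, was at 335, 329, 363 and 391 CPM in mated libraries 1 to 4 and at 206, 135, 218 and 184 CPM in unmated libraries 1 to 4. It rose by a log2 change of 0.93 ± 0.20 (SE; adjusted p = 0.0142), with no overlap. The SLC36 transporter gene path (FBgn0036007; 3L, 9494555 to 9505328, - strand), known to interact with TOR-dependent growth, was at 164, 176, 183 and 200.02 CPM in mated libraries 1 to 4 and at 116, 97.8, 126 and 134 CPM in unmated libraries 1 to 4 (log2 0.61, adjusted p = 0.00544). CG8785, listed with the amino acid transporters, rose from 223 ± 38.8 to 478 ± 54.5 CPM (log2 1.10, adjusted p = 0.00251). The glutamate transporter gene dmGlut contributed most to the sum and rose from 497 ± 136 to 951 ± 215 CPM. The leucine transporter gene mnd, at 2.80 ± 0.389 CPM without and 4.44 ± 1.32 CPM after mating, narrowly missed the threshold (adjusted p = 0.0512).

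Other uptake genes changed individually. The nucleoside transporter gene CNT2 (FBgn0025709; 2R, 9078721 to 9082374, + strand) stood at 294, 313, 292 and 273 CPM in mated libraries 1 to 4 and at 138, 89.9, 110.1 and 179 CPM in unmated libraries 1 to 4. Every mated library was above every unmated one, a log2 change of 1.18 ± 0.19 (SE; adjusted p = 0.00511). Of 12 sugar and trehalose transporters 2 were higher and 1 lower. CG6484 fell from 522 ± 57.3 to 265 ± 48.8 CPM (log2 -0.98, adjusted p = 0.0104), CG4607 rose from 91.9 ± 34.5 to 168 ± 19.1 CPM, and Glut1, a glucose transporter at low level, rose from 6.93 ± 1.95 to 13.1 ± 2.68 CPM (adjusted p = 0.0495). CG4607 and Glut1 lost the call in 6 of the 8 fits that left out 1 library.

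Mitochondrial energy genes were on the higher side. All 16 genes of the tricarboxylic acid (TCA) cycle had positive log2 fold changes, against 51.7% of all genes, 5 passed the test, and the median was 0.23. The citrate synthase gene kdn (FBgn0261955; X, 6350629 to 6361323, + strand), at the entry of the cycle, stood at 753, 864, 806 and 883 CPM in mated libraries 1 to 4 and at 619, 565, 485 and 530.1 CPM in unmated libraries 1 to 4, without overlap (log2 0.59, adjusted p = 0.0141). The others were the fumarase gene Fum1, the succinate dehydrogenase subunit gene SdhA, the mitochondrial aconitase gene mAcon1 and the isocitrate dehydrogenase gene Idh, with log2 fold changes of 0.31, 0.33, 0.35 and 0.43. All 57 nuclear genes of the respiratory chain and ATP synthase also had positive log2 fold changes, with a median of 0.18, and 5 were called. The number called was 13 with DESeq2, 14 with the replicate number as a block, 17 with the split of replicates 1 and 2 from 3 and 4 as a term, and 8 with upper quartile scaling. Cyt-c-p, the main cytochrome c gene, rose from 269.9 ± 16 to 421 ± 11.9 CPM (log2 0.64, adjusted p = 0.00689). The ATP synthase genes ATPsynC and blw rose by log2 0.34 and 0.33. sesB, the mitochondrial ADP/ATP exchanger, rose from 1566 ± 136 to 2225 ± 134 CPM (log2 0.51, adjusted p = 0.00912). The TCA cycle genes called numbered 1 to 3 without any single library other than mated library 1. The respiratory chain genes called numbered 1 or 2 without mated library 2, 3 or 4 or unmated library 1, 2 or 3. Fum1 lost the call in 4, mAcon1 in 5, ATPsynC in 6, and blw in 7 of the 8 fits that left out 1 library. None of 13 genes of the mitochondrial genome and none of 22 glycolysis and gluconeogenesis genes was called.

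Fat metabolism split by gene. Of 16 genes of fatty acid oxidation and ketone metabolism 2 were lower and 1 higher. Mcad (FBgn0035811; 3L, 7719350 to 7721472, + strand), the medium-chain acyl-CoA dehydrogenase of mitochondrial beta-oxidation, stood at 621, 828, 822 and 708 CPM in unmated libraries 1 to 4 and at 311, 369.7, 322 and 414 CPM in mated libraries 1 to 4. The groups were separated by a wide gap, a log2 change of -1.07 ± 0.15 (SE; adjusted p = 0.00213). The carnitine palmitoyltransferase gene whd, which admits long-chain fatty acids into mitochondria, fell from 869.7 ± 367 to 355 ± 120.5 CPM (log2 -1.29, adjusted p = 0.0431), but its groups overlapped. Mtpalpha, of the trifunctional oxidation enzyme, rose by log2 0.31. Among 24 lipid synthesis genes FASN1, the fatty acid synthase, was the only one called by edgeR, rising from 195 ± 26.4 to 339 ± 24.4 CPM (log2 0.80, adjusted p = 0.0258). Mtpalpha was not called without mated library 2, unmated library 1 or unmated library 2. FASN1 lost the call in 5, and whd in 6 of the 8 fits that left out 1 library.

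Of the detoxification genes called, most were lower. Of 64 cytochrome P450 genes, which oxidise plant toxins, drugs and hormones, 9 were lower and none was higher, with a median log2 fold change of -0.17. Cyp28d1 (FBgn0031689; 2L, 5210460 to 5212445, + strand) stood at 274, 256, 300.0 and 225 CPM in unmated libraries 1 to 4 and at 68, 69.7, 61.5 and 66.4 CPM in mated libraries 1 to 4. The mated values lay within a narrow band, far below the unmated ones, a log2 change of -1.99 ± 0.22 (SE; adjusted p = 0.000528). Cyp6a23 fell from 146 ± 14.1 to 62.9 ± 8.94 CPM (log2 -1.22, adjusted p = 0.00122) and its near relative Cyp6a17 from 32.1 ± 7.52 to 14 ± 0.477 CPM (log2 -1.19, adjusted p = 0.000528). The others were Cyp309a1, Cyp12a5, Cyp6d5, Cyp6g1, Cyp6a9 and Cyp9h1, with log2 fold changes of -1.11, -0.94, -0.77, -0.74, -0.55 and -0.51. Of 28 UDP-glycosyltransferases, which attach sugars to lipophilic compounds, 4 were lower and 1 higher. Ugt35C1 fell from 124 ± 21.2 to 58.6 ± 7.56 CPM (log2 -1.08, adjusted p = 0.00347) and Ugt303A1 from 182 ± 23.5 to 126 ± 6.01 CPM. Of 33 glutathione transferases GstT4 fell (log2 -0.98, adjusted p = 0.0108) and GstE13 rose (log2 0.31, adjusted p = 0.0181). These are 6.06% of the list, below the 6.87% of all genes called. GstE13 was not called without mated library 3, unmated library 2 or unmated library 3. The 4 UDP-glycosyltransferases called lower became 2 without mated library 2, and the higher one, Ugt316A1, lost the call in all of the 8 fits that left out 1 library.

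Metal handling was represented by 2 metallothioneins, small cysteine-rich proteins that bind copper and cadmium, among 21 genes tested. MtnC (FBgn0038790; 3R, 20360308 to 20360634, + strand) stood at 135, 166, 261 and 297 CPM in unmated libraries 1 to 4 and at 54.4, 64.5, 60.7 and 62.7 CPM in mated libraries 1 to 4. The mated libraries spread less than the unmated ones and all lay below them (log2 -1.83, adjusted p = 0.00882). MtnD fell from 14.6 ± 3.10 to 4.09 ± 1.25 CPM (log2 -1.85, adjusted p = 0.0387). Of 20 antioxidant genes maf-S, partner of the Nrf2-like factor CncC, fell (log2 -0.48) and Sod3 rose (log2 0.56). Calls made up 9.52% of the metal handling and 10% of the antioxidant list, against 6.87% of all genes. MtnD and Sod3 lost the call in all of the 8 fits that left out 1 library.

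Nutrient signalling genes were called lower for 6 of 28 members of the insulin, FOXO and TOR list and higher for 1. Rheb (FBgn0041191; 3R, 5568921 to 5570491, + strand), the GTPase that activates TOR complex 1, stood at 97, 97.5, 89.6 and 85 CPM in unmated libraries 1 to 4 and at 61.2, 65, 61.5 and 68.1 CPM in mated libraries 1 to 4, without overlap (log2 -0.53, adjusted p = 0.00251). The bZIP factor gene REPTOR-BP, which acts downstream of TOR, fell from 28.1 ± 1.45 to 18.2 ± 2.39 CPM (log2 -0.63, adjusted p = 0.0120). The insulin receptor substrate gene chico (log2 -0.38, adjusted p = 0.0230), the adaptor gene Lnk (log2 -0.40, adjusted p = 0.0434) and RagA-B (log2 -0.22, adjusted p = 0.0478) fell too. Thor, the translation inhibitor 4E-BP and a FOXO target, stood at 837, 956, 635 and 439.7 CPM in unmated libraries 1 to 4 and at 298, 447, 197 and 404 CPM in mated libraries 1 to 4. One unmated library lay inside the mated range, and the call was close to the threshold (log2 -1.09, adjusted p = 0.0480). sgg, the glycogen synthase kinase 3 gene, rose from 118 ± 9.93 to 153 ± 9.34 CPM (log2 0.38, adjusted p = 0.0128). The list mixes activators and inhibitors of the pathways, so its count has no single direction, and its median was 0.05. Leaving out mated library 1 or 2, or unmated library 1 or 2, brought the number called lower to 2, and leaving out unmated library 3 brought it to 3. chico lost the call in 4, and Thor in 7 of the 8 fits that left out 1 library.

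Hormone response genes gave few calls. Of 23 ecdysone response genes only Blimp-1, an ecdysone-induced repressor known from metamorphosis, was called, falling from 83.4 ± 11.9 to 56 ± 9.13 CPM (log2 -0.58, adjusted p = 0.0190). Of 7 juvenile hormone genes Jheh3, an epoxide hydrolase of the family that degrades the hormone, was called higher (log2 0.48, adjusted p = 0.0367), with overlapping groups. None of 6 receptors of mating and reproduction was called. Blimp-1 was not called without mated library 2 or unmated library 2. Jheh3 lost the call in 5 of the 8 fits that left out 1 library.

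Cell cycle and DNA replication genes were called higher for 7 of 45, none lower, with a median of 0.40, and 41 of the 45 had positive values. CycE, which drives entry into S phase, was at 6.34, 5.41, 5.18 and 3.09 CPM in mated libraries 1 to 4 and at 2.04, 2.25, 2.00 and 3.66 CPM in unmated libraries 1 to 4. The lowest mated value was below the highest unmated one (log2 1.03, adjusted p = 0.0168). The polymerase genes DNApol-alpha180 and DNApol-epsilon255 rose from 6.16 ± 0.902 to 9.75 ± 2.21 CPM and from 3.62 ± 0.271 to 6.31 ± 2.04 CPM. The others were the helicase genes dpa and Mcm7, the ribonucleotide reductase gene RnrL and fzy, a Cdc20 activator of anaphase, with log2 fold changes of 0.56, 0.69, 0.63 and 0.89. These are low transcripts, and the count depended on single libraries. It was 1, 2 and 18 without mated library 1, 2 and 4, 3 without unmated library 1 or 3, and 0 without unmated library 2. Of 15 genes of JNK signalling and cell death 2 were lower, the death activator hid (from 12.9 ± 2.71 to 7.27 ± 1.85 CPM) and the initiator caspase gene Dronc (from 45.4 ± 7.47 to 26.7 ± 2.74 CPM). CycE was not called without mated library 1 or unmated library 2, nor was DNApol-alpha180 without unmated library 2, nor was DNApol-epsilon255 without mated library 1, mated library 2 or unmated library 2. Dronc lost the call in 5, and hid in 6 of the 8 fits that left out 1 library.

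The unfolded protein response, which raises the folding capacity of the endoplasmic reticulum, had 3 of 21 genes higher and none lower, with a median of 0.25. The number called was 9 with DESeq2 and 5 with either the replicate block or the split term. They were Sec61beta, a subunit of the protein-conducting channel (log2 0.35, adjusted p = 0.0397), sip3, a ubiquitin ligase of protein degradation at the reticulum (log2 0.25, adjusted p = 0.0224), and PEK, the kinase that phosphorylates eIF2alpha (log2 0.22, adjusted p = 0.0470). In 12 of the 21 genes the mated libraries were all above the unmated ones, against 6.88% of all genes. None of 32 proteasome subunits was called, nor any of 14 antimicrobial peptides, 15 heat shock genes, 12 brush border and junction genes or 9 peritrophic matrix genes. Single genes were called lower in the lists of peptidoglycan recognition (PGRP-LA, log2 -0.56), JAK/STAT and EGF receptor signalling (the ligand gene spi, log2 -0.42) and gut regional factors (bin, log2 -0.57). These are 5.88%, 4.76% and 5.26% of their lists, below the 6.87% of all genes called. The count of the unfolded protein response was 0 to 1 without any single library other than mated library 4, without which it was 5. sip3 lost the call in 5, Sec61beta, PGRP-LA and spi in 6, and PEK and bin in 7 of the 8 fits that left out 1 library.

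**Figure D3:**
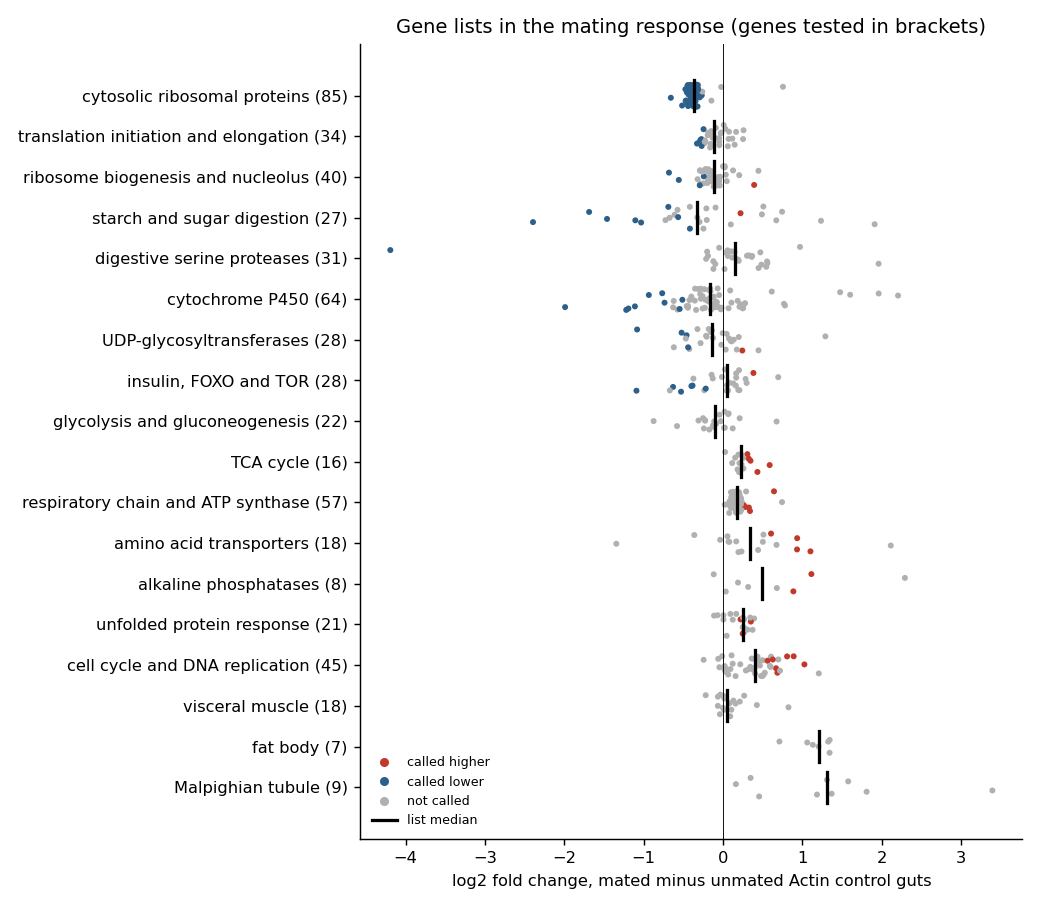
Log2 fold changes (mated minus unmated) of the members of 18 gene lists; red and blue points are called higher and lower, grey points are not called and black bars are medians. The 85 cytosolic ribosomal proteins cluster at a median of -0.37, while the TCA cycle and respiratory chain lists lie wholly above 0.

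Some of the largest changes were in genes outside these lists. Pebp1, of the phosphatidylethanolamine-binding protein family, was the most abundant transcript that rose and stood at 4214, 4883, 5257 and 5653 CPM in mated libraries 1 to 4 and at 2093, 1586, 3309.8 and 3414 CPM in unmated libraries 1 to 4 (log2 0.94, adjusted p = 0.0260). CG4563 rose from 155 ± 23.7 to 432 ± 20.5 CPM (log2 1.48, adjusted p = 0.00213), CG31259 from 75.2 ± 32.2 to 189.8 ± 28.6 CPM and CG3106 from 624 ± 259.9 to 1419.6 ± 80.9 CPM. l(3)77CDf rose from 17.9 ± 2.41 to 36.4 ± 5.88 CPM (log2 1.02, adjusted p = 0.00255). The activin-like ligand gene daw, known in flies to link nutrient state to insulin release, rose from 9.15 ± 2.91 to 21 ± 7.79 CPM (log2 1.19, adjusted p = 0.0351). Among the lower genes CG15199 stood at 131, 151, 649 and 583 CPM in unmated libraries 1 to 4 and at 17.5, 27.3, 33.7 and 45.8 CPM in mated libraries 1 to 4 (log2 -3.61, adjusted p = 0.00834). Its unmated values ranged widely but all exceeded the mated ones. CG11878 fell from 497 ± 167 to 149 ± 59.4 CPM, CG32444 from 49.9 ± 17.6 to 15.2 ± 6.66 CPM and CG34040 from 30.5 ± 20.1 to 4.14 ± 3.21 CPM. The abundant CG5107 fell from 2346 ± 486 to 1372 ± 350.4 CPM (log2 -0.77, adjusted p = 0.0353). CG11878 was not called without unmated library 2. CG34040 lost the call in 4, and daw, Pebp1 and CG5107 in 5 of the 8 fits that left out 1 library.

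Markers of tissues that adjoin the gut were uneven between libraries. All 9 Malpighian tubule markers (NaPi-T, Uro and others) had positive log2 fold changes with a median of 1.31, and none was called. Their summed level was 211, 138, 179 and 113 CPM in mated libraries 1 to 4 and 124, 86.4, 62.4 and 88.4 CPM in unmated libraries 1 to 4. The tubule enzyme Uro was at 39.9, 18.4, 9.94 and 0.0524 CPM in mated libraries 1 to 4 and at 5.42, 0.738, 0.105 and 0.144 CPM in unmated libraries 1 to 4, so it was near 0 in 1 mated and 2 unmated libraries. All 7 fat body markers tested, among them the yolk protein genes Yp1, Yp2 and Yp3, also had positive values, with a median of 1.21 and none called. Their sum was 604, 673, 193 and 641 CPM in mated libraries 1 to 4 and 414, 265, 108 and 118 CPM in unmated libraries 1 to 4. Both sums overlapped between the groups and were on average higher after mating, and their part in the results above was not tested. Without mated and unmated libraries 1 together, the pair highest in tubule markers within its own group, the medians were -0.36 over ribosomal proteins, -0.41 over starch and sugar genes, -0.16 over P450 genes and 0.45 over amino acid transporters, against -0.37, -0.32, -0.17 and 0.34 with all libraries. Some other medians shrank or changed sign in the same fit. They went from 0.40 to 0.22 over cell cycle genes and from -0.13 to -0.04 over UDP-glycosyltransferases. Over sugar and trehalose transporters the change was from 0.10 to -0.18, and over glutathione transferases from 0.02 to -0.15. With 3 libraries in each group that fit called 191 genes, among them 24 ribosomal proteins, and 0 cell cycle genes were called higher. In the libraries it kept, the tubule sums were 138, 179 and 113 CPM in mated and 86.4, 62.4 and 88.4 CPM in unmated guts. Every mated tubule sum was thus above every unmated one, and the fat body sums were still on average higher after mating. That fit therefore removed neither imbalance, and the part of either in these medians was not tested. No marker of visceral muscle, progenitors, enterocytes, haemocytes, trachea or neurons was called. The peptide gene Tk was the only one of 17 enteroendocrine markers called, at 93.7 ± 3.78 CPM without and 76.8 ± 7.95 CPM after mating, and 16 of the 17 had negative values. Of 4 ovary markers tested, otu rose from 10.6 ± 1.06 to 20.2 ± 1.00 CPM (log2 0.93, adjusted p = 0.000125), while the eggshell genes Cp36 and Cp38 and the germline gene vas were each under 1 CPM on average. Tk lost the call in 4 of the 8 fits that left out 1 library.

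**Figure D4:**
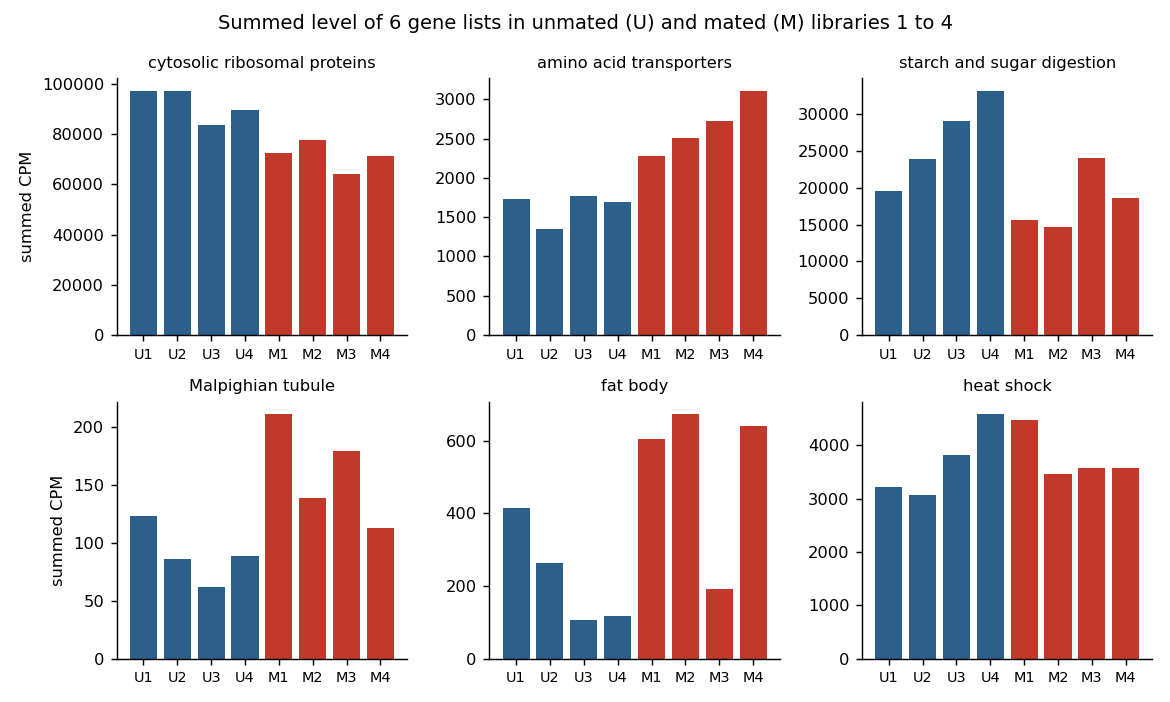
Summed CPM of 6 gene lists in each unmated (U, blue) and mated (M, red) Actin control library. Ribosomal protein sums separate the groups, 64251 to 77528 in mated against 83475 to 97255 in unmated libraries, and amino acid transporter sums separate them the other way, whereas the other 4 lists overlap.

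The mating response of the libraries labelled EcR RNAi, from the same experiment but with no library in common, was set beside that of the controls. EcR itself stood at 9.56 ± 1.15 CPM after mating and 12.9 ± 1.28 CPM without it in libraries of that label, above both control means. Its fall with mating was called there (log2 -0.43, adjusted p = 0.0250), unlike in controls. The edgeR test of the difference between the 2 responses gave EcR an unadjusted p of 0.0112 and an adjusted p of 0.590. The mean level of the targeted transcript was thus not lower under the label, though EcR was not tested between the genotypes. These libraries are named by their label only. Of the 621 genes called in controls, 594 (95.7%) had the same direction there, against 67.6% of all genes tested, and 283 were called in both, all of them in the same direction. These shared genes are 45.6% of the control calls and 29.1% of the 974 calls (10.8% of genes tested) in the libraries labelled EcR RNAi. No gene passed the test of the difference between the responses by edgeR (0% of 9036 genes). At an unadjusted p under 0.05 the number was 727, and DESeq2 called 1, so a difference was not shown at this depth and spread. The log2 fold changes in controls and in the libraries labelled EcR RNAi were -2.40 and -1.95 for tobi, -1.99 and -2.22 for Cyp28d1, 0.93 and 0.76 for slif, and 1.18 and 1.25 for CNT2. The median over cytosolic ribosomal proteins was -0.37 in controls and -0.18 in the libraries labelled EcR RNAi, where 1 of 85 was called lower (5.41% of all genes were). In the test of the difference 21 of these 85 had an unadjusted p under 0.05, against 727 of all 9036 genes. Over respiratory chain and ATP synthase genes the median was 0.18 and 0.29, with 5 and 41 called higher (5.37% of all genes in the libraries of that label). The 5 became 13 to 17 with DESeq2, the replicate block or the split term. They became 1 with only the 8 control libraries, and also 1 without replicate 1 of both mating states. Of the 57 genes 1 had an unadjusted p under 0.05 in the test of the difference.

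Set against the other whole gut experiment of the series, most of these genes had the opposite sign. The esg-Gal4 whole guts, also 4 mated and 4 unmated libraries after 48 h of mating, gave 376 calls, 4.26% of 8833 genes tested, 197 higher (2.23%) and 179 lower (2.03%). Of the 617 genes called in Actin controls and tested there, 158 (25.6%) had the same direction, against 45.2% of all genes, and of 63 changed more than 2-fold 8 (12.7%) did. In all 77 genes were called in both, 12.5% and 20.5% of the respective lists, and 74 of them had opposite directions. An exchange of the mated and unmated labels in either experiment was not tested. The driver and, as described, the incubation before mating also differ between the experiments, and these cannot be told apart.

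The difference between the responses was tested in a joint fit of both tables. It was called for 1076 of 9285 genes (11.6%), 443 more positive (4.77%) and 633 more negative (6.82%) in Actin controls, and 381 of the 621 genes called in Actin controls (61.4%) were among them. Cyp28d1, lower after mating in Actin controls, went from 69.4 ± 6.70 to 304 ± 65.1 CPM with mating in esg-Gal4 guts, and the difference of the log2 fold changes was -4.11 (SE 0.29, adjusted p = 9.84e-09). Alp10, higher in mated Actin controls, went from 1831 ± 246 to 388 ± 59.9 CPM with mating in esg-Gal4 guts, a difference of 3.14 (SE 0.18, adjusted p = 4.07e-10). Alp9 differed by 3.24 (SE 0.24, adjusted p = 9.84e-09), and CG8785 by 2.47 (SE 0.26, adjusted p = 2.27e-06). tobi went from 1215 ± 440.4 to 5548 ± 567 CPM with mating in esg-Gal4 guts, the reverse of its fall in Actin controls, a difference of -4.57 (SE 0.57, adjusted p = 2.19e-05). Ugt35C1, the sulphur amino acid enzyme gene Cbs and the Bcl-2 family gene Buffy differed by -2.77 (SE 0.28, adjusted p = 1.74e-06), -1.95 (SE 0.19, adjusted p = 1.51e-06) and -1.74 (SE 0.17, adjusted p = 1.51e-06).

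By list, the difference between experiments was broad. For cytosolic ribosomal proteins, 77 of 85 genes were more negative in Actin controls, where the median was -0.37, than in esg-Gal4 guts, where it was 0.28 and no member was called. For starch and sugar digestion 15 of 27 were more negative and 4 more positive. Of these genes 8 were called higher and 4 lower in esg-Gal4 guts, against 1 higher and 8 lower here. For cytochrome P450 18 of 64 were more negative and 1 more positive. For digestive serine proteases 14 of 31 were more positive and 1 more negative, with 18 called lower and 1 higher in esg-Gal4 guts. For amino acid transporters 8 of 18 were more positive and 1 more negative. For the unfolded protein response, the proteasome and mitochondrial ribosomal proteins no member differed in this test.

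**Figure D5:**
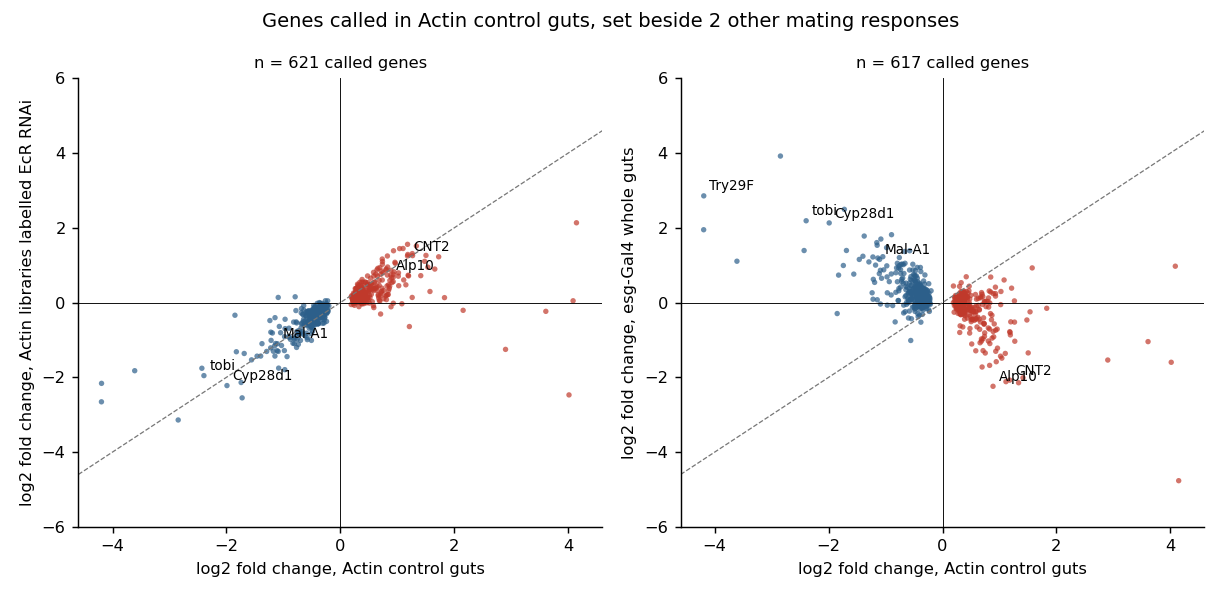
Log2 fold changes of genes called in Actin control guts (horizontal) against the mating response of the Actin libraries labelled EcR RNAi (left, 621 genes) and of esg-Gal4 whole guts (right, 617 genes), with the line of equal change dashed. Most points on the left fall in the quadrants of equal direction (594 of 621), and most on the right in the opposite ones (158 of 617 share a direction).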

How the data were processed

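Poly(A) RNA of dissected whole midguts was sequenced with a directional library kit, per the labels' protocols. The deposited values are raw counts per gene, which the authors made from reads; the submitters' processing notes name STAR, HTSeq, DESeq2 and the builds dm6 and BDGP6. Versions and whether counting used strand were not given in the sources used here, so reads shared by overlapping genes cannot be assigned with certainty, and 23 of the 93 named genes overlap a gene on the other strand, among them tobi, Mal-A1, Mcad, Cyp28d1, CG15199, RpL3, RpS28b, whd, otu and CycE. The table holds 10406 gene rows and 594 rows of transposable elements (0.0642% to 0.0781% of counts), which were left out. Positions come from the BDGP6.54 annotation and are 1-based. The 15 Myo1A samples were left out, since their table repeats the whole gut columns value for value, and 16 further columns matched no sample here and were not used.

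Tests used edgeR 4.0.16 in R 4.3.3: filterByExpr (minimum count 10, minimum total 15), TMM scaling and robust quasi-likelihood F tests with Benjamini-Hochberg adjustment, checked on simulated data. All 16 Actin libraries, control and labelled EcR RNAi, entered 1 fit with 4 group means, and the difference from esg-Gal4 whole guts came from a joint fit with those 8 libraries. A standard error (SE) is the absolute log2 fold change over the root of its F statistic and so carries no information beyond the p. Named genes are EcR, the 10 called genes at either end of the fold changes whose groups do not overlap and whose mean log2 CPM is 3 or more, the 3 called members of each list with the smallest adjusted p in each direction, the 5 called genes with the largest counts in each direction, and 5 in each direction per difference test; other members of a list described as a whole may be named. Genes and lists of the library checks (Hsp26, Hml, AttD, digestive serine proteases, lysozymes) were chosen after their values were seen. The libraries, lists and rules were chosen with earlier results of these data known, and lists are described by counts and medians with no test. Alternatives were DESeq2 1.42.0, upper quartile scaling, DESeq2's size factors, a minimum count of 50, no filter, a replicate block, the compared groups alone and each library left out.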

Additional observations from a re-analysis of the deposited data

Results flagged for a closer look

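Within 186 groups of 4 libraries of named genes, 7 had a library far from the others, where chance gives about 1 in 20. These were Alp10 in mated library 1 at 783 CPM, Alp9 in unmated library 2 at 185 CPM, CG32444 in unmated library 3 at 75.8 CPM, CycE in unmated library 4 at 3.66 CPM, GCS2alpha in unmated library 1 at 327 CPM, GstT4 in unmated library 3 at 732 CPM and Ugt316A1 in unmated library 2 at 21.7 CPM.

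The mating response differed between Actin controls and esg-Gal4 whole guts in 1076 genes by the edgeR test of the difference itself. The difference of log2 fold changes, Actin controls minus esg-Gal4 guts, was 3.14 for Alp10, 3.24 for Alp9, 2.43 for CG6296, 1.89 for CG7631 and 2.47 for CG8785. It was -1.74 for Buffy, -1.95 for Cbs, -2.02 for CG9664, -4.11 for Cyp28d1 and -2.77 for Ugt35C1. Within Actin controls the mating call of Ugt316A1 was lost in all, and that of CG6296 in 7, of the 8 fits that left out 1 library.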

How the results depend on the processing

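The 621 mating calls became 1048 with DESeq2, 266 with only the 8 control libraries (242 of them shared), 191 without mated and unmated replicate 1 together, and 288 to 668 when 1 library was left out. That number was 383, 340, 333, 288 and 408 without mated libraries 1, 2 and 3 and unmated libraries 2 and 3. It was 601 with DESeq2's size factors, 633 with upper quartile scaling, 587 without a filter and 667 at a minimum count of 50. Leaving out replicate 1 of both states and the term for the split of libraries were chosen after seeing the data. The difference from the libraries labelled EcR RNAi stayed at 0 genes except with DESeq2, which called 1. The difference from esg-Gal4 guts ranged from 748 with only the compared groups to 1318 with DESeq2.

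Same-numbered mated and unmated libraries had correlations of their deviations of 0.266, 0.219, 0.0651 and 0.124, all positive. Those of different numbers ran from -0.398 to 0.371, and 1 of 4 mated libraries correlated best with its own number. The main fit did not take the numbers as pairs, and these values do not settle whether they are. With the replicate number as a block, 903 genes were called for mating, 0 for the difference from the libraries labelled EcR RNAi and 1273 for that from esg-Gal4 guts.

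Of the 93 named genes 32 were called in all 17 alternatives, among them tobi, Mal-A1, Mcad, Cyp28d1, path, CNT2, Alp10, kdn and MtnC. No called value changed sign; EcR, never called, had log2 fold changes from -0.0417 to 0.1133 when 1 library was left out, negative without mated library 3 (-0.04) and unmated libraries 1 (-0.03) and 3 (-0.01). No test set how small a change these depths could show in genes of a few CPM such as CycE, so a gene not called there may still differ. Some list counts rose by over 1.5 times in other fits. With DESeq2 and with the replicate block, translation factors called lower were 11 and 7 in place of 6, cell cycle genes called higher 12 and 8 in place of 7, lipid synthesis genes called higher 5 and 3 in place of 1, enteroendocrine markers called lower 3 and 3 in place of 1, and glutathione transferases called lower 2 and 4 in place of 1.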

Other observations

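A pair of gene groups described nowhere above were compiled after the calls had been seen, so their counts are descriptions only. Of 62 genes of protein processing in the endoplasmic reticulum and transport to the Golgi, 17 were higher in mated Actin control guts and none was lower, the median log2 fold change was 0.20, and 59 values were positive. In 39 of them all mated libraries were above all unmated ones. Over all genes 2.95% were called higher, 51.7% had positive values and 6.88% were higher without overlap. The next genes named are from the 62. The list included the vesicle coat gene Sec31, at 110.4 ± 9.80 CPM without and 134 ± 6.15 CPM after mating, the cargo receptor gene ergic53, which rose from 215 ± 8.46 to 281 ± 10.5 CPM (log2 0.39, adjusted p = 0.0160), and Surf4, which rose from 168 ± 3.73 to 215 ± 7.90 CPM (log2 0.36, adjusted p = 0.0128). The guanine nucleotide exchange factor gene garz rose from 132 ± 13.6 to 175 ± 7.91 CPM. In the libraries labelled EcR RNAi 34 of the 62 were higher, and in esg-Gal4 guts none was called. The number called in controls was 32 with DESeq2, 0 without replicate 1 of both mating states and 6 with only the 8 control libraries, and without any single library other than mated library 4 it was 4 to 11.

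Of 43 genes of autophagy and the ESCRT machinery, which sorts membrane cargo for the lysosome, 10 were lower (3.92% of all genes were) and none was higher, with a median of -0.19. Atg8a, the ubiquitin-like protein that coats autophagosomes, fell from 364 ± 22.5 to 259 ± 51.4 CPM (log2 -0.49, adjusted p = 0.0332). Atg101, of the complex that starts autophagy, fell from 39.1 ± 3.98 to 26.4 ± 2.92 CPM (log2 -0.57, adjusted p = 0.00912), and Syx17, which fuses autophagosomes with lysosomes, fell from 16.6 ± 1.87 to 12.4 ± 1.16 CPM (log2 -0.43, adjusted p = 0.0280). The ESCRT-III genes Chmp1, Vps24 and shrb had log2 fold changes of -0.52, -0.42 and -0.40, and the late endosome gene Rab7 fell from 242 ± 16.6 to 191 ± 15.3 CPM. In the libraries labelled EcR RNAi 11 of the 43 were lower, and in esg-Gal4 guts none was called. The number called lower in controls was 3 with only the 8 control libraries and 4, 5, 5 and 3 without mated libraries 1, 2 and 3 and unmated library 2.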
